A study of Mus musculus with 8 samples.

Results

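The 47 genes described here encode proteins of the cell division cycle, from the loading of the replicative helicase to the separation of daughter cells. They were picked by symbol from the 49585 rows of the per-library expression lists and comprise 17 genes of S phase, the period of DNA replication, and 30 genes of mitosis. Their levels were compared between whole pituitary of old mice (18–24 months) and of young mice (2–3 months). Each age was represented by 4 samples. All animals were wild-type C57BL/6 mice kept free of specific pathogens on regular chow, and blood had been removed by perfusion. Polyadenylated RNA was sequenced, and levels are given as FPKM, fragments scaled to exon length and to the fragments mapped in each library. Whether the samples of 1 age were taken from different animals is not said in the labels or methods, and all tests therefore speak only of the spread among these samples, which may be technical.

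Before a cell divides, Cdc6 and Cdt1 place the Mcm2 to Mcm7 helicase ring on replication origins, and Cdc45 and the GINS complex turn it into a moving helicase. In mitosis, Cdk1 bound to a B-type cyclin drives entry, kinetochores attach chromosomes to the spindle, and the anaphase-promoting complex then destroys the cyclin so that the cell can split. Transcripts of the mitotic group accumulate late in the cycle, so their level in a tissue is commonly read as a measure of how many cells are in or near division. The pituitary of adult mice renews slowly, and dividing cells in it are found among hormone cells, stem cells, endothelial cells and macrophages.

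The library totals behind the FPKM were inferred from the values and exon lengths. They lay between 16098525 and 19272099 fragments in old pituitary and between 15042318 and 20429598 in young pituitary. The hormone genes marked the gland as labelled, since 7 such genes together reached 101323 to 129735 FPKM in old and 135832 to 160008 FPKM in young libraries. Together with the repeat genes of ribosomal RNA, these 7 took 32.5 to 36.6% of the fragments in old and 37.5 to 40.6% in young libraries, and all FPKM values share this denominator. The median log2 difference, old minus young, over the 23498 genes that averaged 0.1 FPKM or more was 0.15, and the member values below stand against that shift. Scaling each library by its median ratio to the gene means moved this median to 0.01, and computing library sizes without the hormone genes and these repeats moved it to 0.06. With the FPKM as deposited, limma called 436 genes higher and 111 lower in old at a Benjamini-Hochberg adjusted p under 0.05, against 212 and 201 after median-ratio scaling and 217 and 121 with such library sizes. Old replicate 4 stood apart in the sum of 6 markers of pituicytes, the glial cells of the posterior lobe. The sum was 2.40, 2.76, 3.22 and 8.32 FPKM in old libraries, against 2.34 to 3.03 FPKM in young libraries. Its excess came mainly from Scn7a (3.00 FPKM), Col25a1 (2.91 FPKM) and Rax (0.480 FPKM). Gfap (0.108 FPKM) and Aqp4 (1.06 FPKM) lay within the range of the other old libraries, and Aqp4 was below every young one. Slc1a3 (0.763 FPKM) was slightly above the young maximum of 0.705 FPKM. All 47 members passed the 0.1 FPKM filter on the mean over all 8 libraries, and each stood on 1 row.

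Promoter sequences came from RefSeq on GRCm38.p6, covered 250 bases before and 50 after the transcription start, and matched 40 of the 47 members. Vertebrate mitotic promoters are known for CCAAT boxes and for the cell cycle homology region (CHR), whereas promoters of replication genes often carry E2F sites. The letters searched on both strands were CCAAT for the CCAAT box, TTTGAA for the CHR, and TTTCGCGC, TTTGGCGC, TTTCCCGC, TTTGCCGC or TTTCCCGG for E2F-type sites. Motifs of different kinds shared bases in 2 member promoters. The following stretches are the 250 bases before the start, printed to show both kinds of arrangement in the members of each group with the smallest p-values among those with 1 promoter entry and a match there. Capitals mark every match on either strand. Kif11 lies at chr19:37376132-37376381 on the plus strand, Ccnb1 at chr13:100786487-100786736 on the minus strand, Mcm2 at chr6:88898781-88899030 on the minus strand and Cdc6 at chr11:98907901-98908150 on the plus strand.
Kif11 promoter: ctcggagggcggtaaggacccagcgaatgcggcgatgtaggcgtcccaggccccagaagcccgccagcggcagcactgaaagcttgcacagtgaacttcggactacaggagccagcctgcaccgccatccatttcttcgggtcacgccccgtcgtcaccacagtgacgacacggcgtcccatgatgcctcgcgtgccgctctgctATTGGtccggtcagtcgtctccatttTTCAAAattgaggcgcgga
Ccnb1 promoter: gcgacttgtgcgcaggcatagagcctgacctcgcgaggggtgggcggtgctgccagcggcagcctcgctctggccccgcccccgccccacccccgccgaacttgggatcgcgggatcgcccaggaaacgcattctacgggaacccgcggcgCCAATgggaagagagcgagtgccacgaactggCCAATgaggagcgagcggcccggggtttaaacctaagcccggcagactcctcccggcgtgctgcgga
Mcm2 promoter: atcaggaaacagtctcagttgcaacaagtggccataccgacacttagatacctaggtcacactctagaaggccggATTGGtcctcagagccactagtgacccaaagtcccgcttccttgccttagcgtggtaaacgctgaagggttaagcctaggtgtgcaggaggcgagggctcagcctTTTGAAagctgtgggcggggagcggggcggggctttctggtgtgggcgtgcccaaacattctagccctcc
Cdc6 promoter: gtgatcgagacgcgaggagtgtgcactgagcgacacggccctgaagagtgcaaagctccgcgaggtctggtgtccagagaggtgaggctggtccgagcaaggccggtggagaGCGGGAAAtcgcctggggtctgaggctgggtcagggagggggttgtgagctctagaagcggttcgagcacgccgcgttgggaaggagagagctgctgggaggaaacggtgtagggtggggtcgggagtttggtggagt

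The next pair was chosen after the matches had been seen, Top2a as the mitotic member with the most matches and Mcm6 as the S phase member with the most E2F-type matches. Top2a lies at chr11:99024190-99024439 and Mcm6 at chr1:128359706-128359955, both on the minus strand.
Top2a promoter: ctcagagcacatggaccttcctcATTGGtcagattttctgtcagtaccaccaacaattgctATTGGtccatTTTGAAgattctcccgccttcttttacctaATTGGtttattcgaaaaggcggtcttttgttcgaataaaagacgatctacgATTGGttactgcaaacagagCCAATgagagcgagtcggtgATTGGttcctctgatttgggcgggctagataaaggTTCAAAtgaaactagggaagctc
Mcm6 promoter: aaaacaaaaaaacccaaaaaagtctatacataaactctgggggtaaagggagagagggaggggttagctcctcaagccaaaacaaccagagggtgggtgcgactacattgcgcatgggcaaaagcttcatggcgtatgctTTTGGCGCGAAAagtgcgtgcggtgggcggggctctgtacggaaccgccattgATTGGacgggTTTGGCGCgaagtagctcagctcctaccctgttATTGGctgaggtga

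In the Kif11 promoter a CCAAT box began at position -45 and a CHR at -19 from the start. The Mcm2 promoter held a CCAAT box at -175 and a CHR at -70. The Ccnb1 promoter held CCAAT boxes at -99 and -67 and no CHR in these letters, and the Cdc6 promoter held 1 E2F-type site at -138. All positions count from the RefSeq start. In GENCODE M21 the Cdc6 gene begins at 98907801, so the whole printed Cdc6 stretch lies inside that gene. The Ccnb1 gene there reaches 100786570, so part of its printed stretch does as well. Top2a had 6 CCAAT boxes and 2 CHR matches, while Mcm6 had 2 CCAAT boxes and 3 E2F-type sites, of which those at -110 and -106 share bases. The 40 members had 43 promoter entries, and each gene was scored by its highest count of each motif over its entries. Over the whole 300-base windows, a CHR match was present in 20 of 26 mitotic genes (76.9%), in 2 of 14 S phase genes (14.3%) and in 20.2% of all 27025 genes with a promoter. E2F-type letters were found in 2 of 26 mitotic genes (7.69%), in 6 of 14 S phase genes (42.9%) and in 3.99% of all these genes. CCAAT boxes were frequent in both groups, at 76.9% of mitotic and 64.3% of S phase genes, against 41.1% of all. Both a CCAAT box and a CHR were found for 17 of 26 mitotic genes (65.4%), for 14.3% of S phase genes and for 8.97% of all. For genes with more than 1 entry, the 2 motifs may lie in different entries. These shares describe letters in a window, not bound sites.

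Most mitotic transcripts had lower means in old than in young pituitary, the libraries within each age lay far apart, and no member passed the test. By limma on log2(FPKM + 0.1), 28 of the 30 mitotic genes had a difference below 0 and 23 lay below -0.5, with a median of -0.82. Of all 23498 genes tested, 7052 lay below 0 and 1747 below -0.5. Bub1, Kif2c and Melk, all below -0.5, averaged 0.0847, 0.0741 and 0.0679 FPKM in old libraries. They passed the 0.1 FPKM filter only through the young libraries, so their lower position in old is tied to the filter. The old mean was lower than the young mean for 27 of 30, and the median ratio of the young to the old mean was 2.06. None had a Benjamini-Hochberg adjusted p under 0.05 in either direction, where the fit called 1.86% of all tested genes higher and 0.472% lower. At an unadjusted p under 0.05, 4 mitotic genes were lower in old (Ndc80, Kif11, Ccnb1 and Kif23) and none was higher, against 3.79% and 18% of all genes. The 95% interval of the difference held 0 for 26 of the 30 genes and extended below -1 for 25 of them, so a 2-fold lower level in old was seldom outside what these samples allow. In whole-gland RNA, fewer dividing cells and less RNA per dividing cell cannot be told apart.

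**Figure D1:**
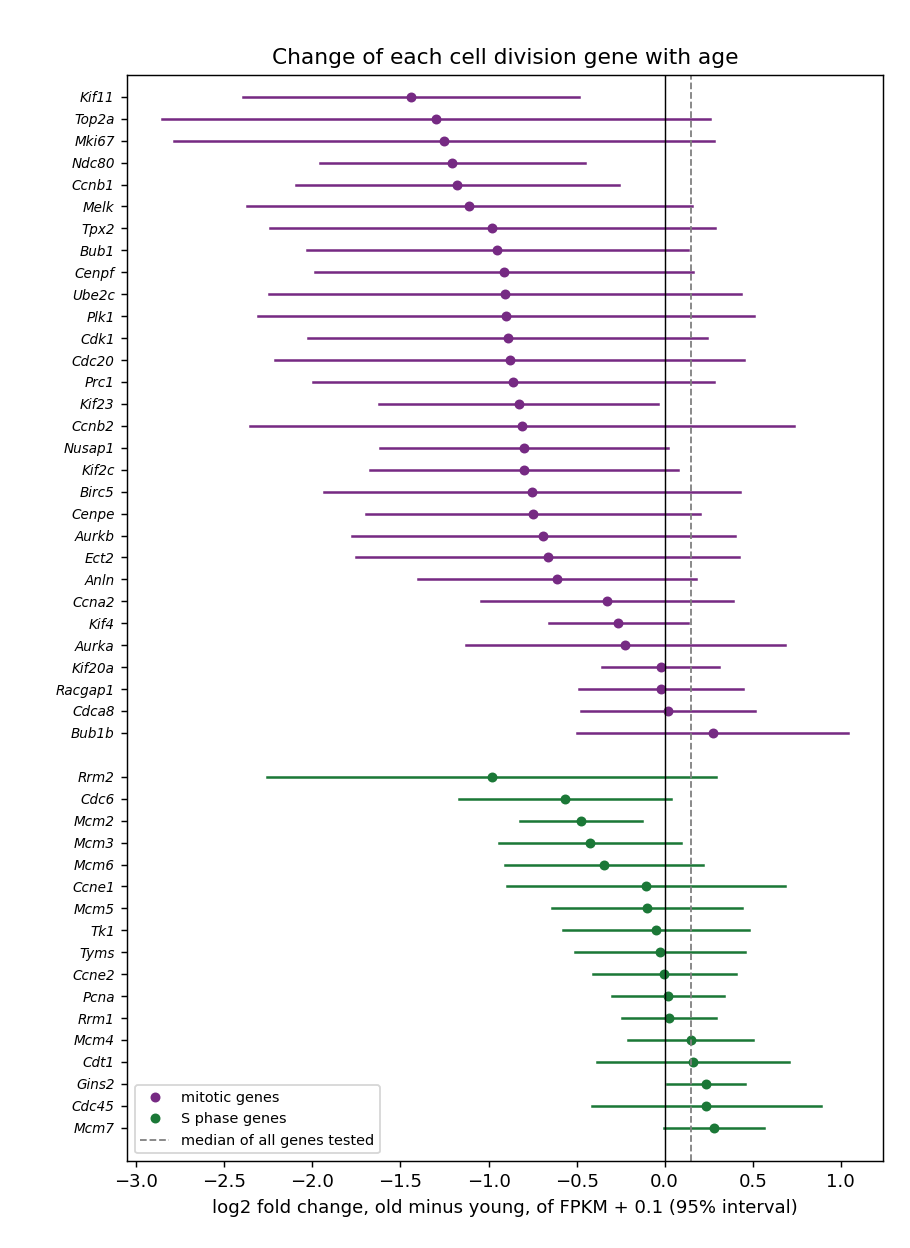
Log2 difference in FPKM + 0.1, old minus young, of each of the 47 members with its 95% interval from limma, S phase and mitotic genes in separate colours, with a dashed line at the median of all genes tested (0.15). Mitotic genes lie mostly left of 0, with a median of -0.82, whereas S phase genes lie around 0, with a median of -0.03.

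The smallest adjusted p among all members belonged to Ndc80, a kinetochore subunit that grips spindle microtubules. It had 0.254, 0.516, 0.189 and 0.208 FPKM in old libraries 1 to 4, against 0.581, 0.664, 1.36 and 0.621 FPKM in young libraries 1 to 4. Every old library lay below every young one. The log2 difference was -1.20 ± 0.32 (SE, n = 4 each, limma adjusted p = 0.0957). Kif11, the motor that pushes the spindle poles apart and a gene with both a CCAAT box and a CHR in its promoter, had 0.219, 0.494, 0.215 and 0.154 FPKM in old libraries, against 0.410, 0.828, 1.71 and 0.862 FPKM in young libraries. Old replicate 2 was above young replicate 1, so the ages overlapped. Its difference of -1.44 ± 0.41 was the most negative of the 47 members (limma adjusted p = 0.108), and the old mean was 0.284 times the young mean. Kif23, a kinesin of the central spindle, averaged 0.126 ± 0.0676 FPKM in old and 0.323 ± 0.214 FPKM in young libraries (SD, n = 4 each), a log2 difference of -0.83 (limma adjusted p = 0.211).

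Ccnb1 encodes the B-type cyclin that activates Cdk1 at mitotic entry. Its levels were 0.0589, 0.295, 0.246 and 0.0271 FPKM in old libraries, against 0.359, 0.331, 0.627 and 0.402 FPKM in young libraries. The ages did not overlap, which was true for 2 of 30 mitotic genes (Ndc80 and Ccnb1) with old below young and for none with old above, against 2.06% and 13.4% of all genes tested. The log2 difference was -1.18 ± 0.40 (limma adjusted p = 0.148). Counts behind it were low, with 2 fragments in old replicate 4, 4 in old replicate 1 and 20 to 54 in the other libraries. Cdk1 itself had 0.108, 0.487, 0.331 and 0.0664 FPKM in old libraries, against 0.219, 0.482, 0.895 and 0.460 FPKM in young libraries. Here old replicates 2 and 3 lay within the young range, while old replicates 1 and 4 were below it. The difference for Cdk1 was -0.89 ± 0.49 (limma adjusted p = 0.327). The second B-type cyclin, Ccnb2, ranged from 0.122 to 0.601 FPKM in old and from 0.266 to 2.59 FPKM in young libraries, and a pseudogene listed separately as Ccnb2-ps averaged 1.91 FPKM, so the division of fragments between these similar sequences is uncertain. Ccna2, which encodes the cyclin A of S phase and G2, had a difference of -0.33 ± 0.31.

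**Figure D2:**
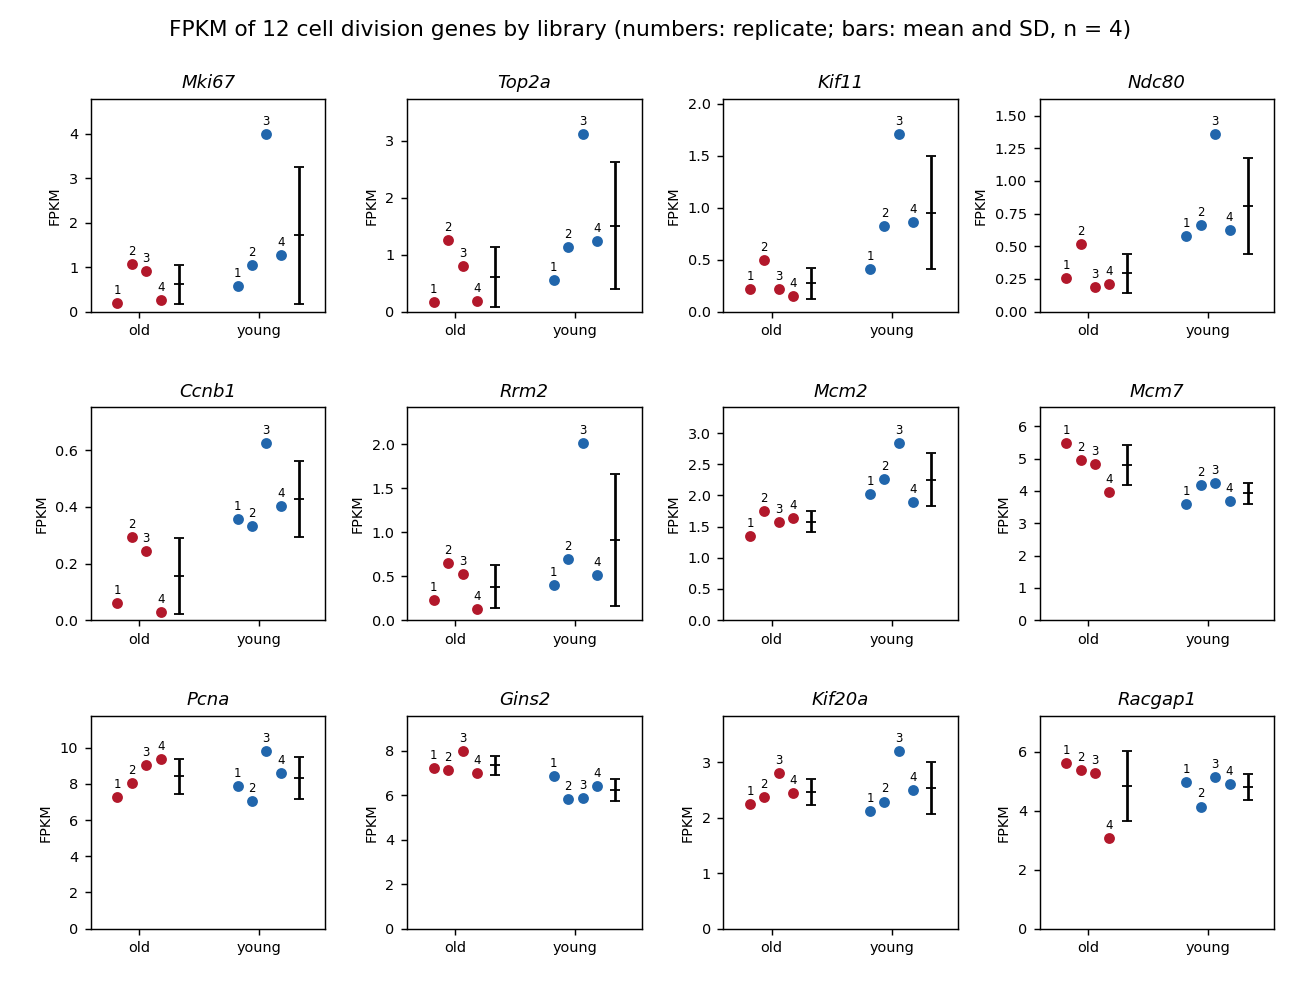
FPKM in every library of 12 members, old libraries left of young ones in each panel, with points numbered by replicate and bars for the group mean and SD (n = 4). In Ndc80 and Ccnb1 all old points are below all young points, while in Mki67 and Top2a the highest point is young replicate 3, at 3.99 and 3.11 FPKM.

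The common markers of cycling cells, Mki67 and Top2a, varied widely within each age. Mki67, which encodes a protein that coats mitotic chromosomes, had 0.204, 1.08, 0.908 and 0.267 FPKM in old libraries, against 0.567, 1.04, 3.99 and 1.27 FPKM in young libraries. Top2a, the topoisomerase that disentangles sister DNA, had 0.172, 1.26, 0.80 and 0.184 FPKM in old libraries, against 0.561, 1.13, 3.11 and 1.23 FPKM in young libraries. For both genes old replicates 1 and 4 were below all young libraries, old replicates 2 and 3 lay within the young range, and young replicate 3 was far above the rest. Differences of -1.25 ± 0.66 and -1.30 ± 0.67 had limma adjusted p of 0.311 and 0.302. Melk, a kinase of proliferating cells, was listed at 0 in old replicates 1 and 4, where a count of 0 allows up to 3 fragments, and had 0.237 and 0.0349 FPKM in old replicates 2 and 3, against 0.112 to 0.692 FPKM in young libraries.

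Regulators of mitotic progression also varied within each age. Plk1, a kinase of mitotic entry, had 0.169, 0.664, 0.519 and 0.0260 FPKM in old libraries, against 0.291, 0.574, 1.09 and 0.522 FPKM in young libraries, with a difference of -0.90 ± 0.61 (limma adjusted p = 0.421). For Cdc20, an activator of the anaphase-promoting complex, levels were 0.333, 1.71, 0.944 and 0.490 FPKM in old libraries, against 0.529, 1.67, 2.65 and 1.70 FPKM in young libraries. In both genes old replicate 2 exceeded 3 of the 4 young libraries. Ube2c, the ubiquitin-conjugating enzyme of the same complex, averaged 0.295 ± 0.295 FPKM in old and 0.541 ± 0.309 FPKM in young libraries. The checkpoint kinase gene Bub1 averaged 0.0847 ± 0.0877 FPKM in old and 0.276 ± 0.221 FPKM in young libraries, but its partner in the spindle checkpoint, Bub1b, averaged 1.27 ± 0.501 FPKM in old and 1.02 ± 0.354 FPKM in young libraries. Bub1b was 1 of only 2 mitotic genes with a difference above 0 (0.27 ± 0.33), the other being Cdca8, which changed sign under another scaling. Aurka, the kinase of the spindle poles, had a difference of -0.22 ± 0.39.

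Members of the chromosomal passenger complex, which corrects faulty attachments, did not share 1 value. Aurkb, its kinase, averaged 0.183 ± 0.114 FPKM in old and 0.391 ± 0.249 FPKM in young libraries, and Birc5, known as survivin, averaged 0.206 ± 0.178 FPKM in old and 0.368 ± 0.178 FPKM in young libraries. Cdca8, or borealin, averaged 0.536 ± 0.158 FPKM in old and 0.521 ± 0.125 FPKM in young libraries, with an interval of the log2 difference of -0.47 to 0.51, and its difference of 0.02 became -0.10 under median-ratio scaling. Among proteins of the spindle and kinetochore, the log2 differences were -0.75 for Cenpe, -0.91 for Cenpf, -0.80 for Kif2c, -0.80 for Nusap1 and -0.98 for Tpx2. Cenpe is a kinetochore motor, Cenpf a kinetochore protein, Kif2c a microtubule depolymerase, and Nusap1 and Tpx2 help to assemble the spindle. Their limma adjusted p lay between 0.240 for Nusap1 and 0.334 for Tpx2.

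Genes of the central spindle and cytokinesis differed in level. Prc1, which bundles the microtubules between separating chromosomes, averaged 0.357 ± 0.240 FPKM in old and 0.730 ± 0.490 FPKM in young libraries. Anln (anillin, a scaffold of the cleavage furrow) and Ect2 (an activator of RhoA there) had differences of -0.61 ± 0.34 and -0.66 ± 0.47. Racgap1, which pairs with Kif23 in the centralspindlin complex, had 5.62, 5.37, 5.26 and 3.09 FPKM in old libraries, against 4.99, 4.14, 5.13 and 4.91 FPKM in young libraries. It was the most abundant mitotic member, and its difference was -0.02 with an interval of -0.49 to 0.44. Kif20a, a kinesin of the central spindle, averaged 2.47 ± 0.239 FPKM in old and 2.53 ± 0.470 FPKM in young libraries, a difference of -0.02 with an interval of -0.36 to 0.31. Kif4, a chromosome-bound kinesin that works with Prc1, averaged 0.808 ± 0.146 FPKM in old and 0.995 ± 0.216 FPKM in young libraries. The 23 mitotic genes with a mean under 1 FPKM had a median log2 difference of -0.83, and the 7 at or above 1 FPKM had a median of -0.33.

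S phase transcripts had differences on both sides of 0. Of the 17 genes, 10 had a log2 difference below 0 and 7 above, with a median of -0.03, and only Rrm2 and Cdc6 lay below -0.5. Of all 23498 genes tested, 7052 lay below 0, and the median was 0.15. None of the 17 passed the test in either direction. At an unadjusted p under 0.05, Mcm2 was lower and Gins2 higher in old, against the same shares of all genes as above (3.79% and 18%). Old libraries lay wholly below young ones for Mcm2 and Cdc6 and wholly above them for Gins2, against 2.06% and 13.4% of all genes. Cdc6 averaged 0.10 FPKM, passed the filter only through the young libraries and dropped below it without young replicate 3, so its lower position in old is tied to the filter.

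The helicase subunits had differences of both signs. Mcm2 had 1.35, 1.75, 1.57 and 1.64 FPKM in old libraries, against 2.02, 2.27, 2.84 and 1.89 FPKM in young libraries. All old values were below all young ones, and the difference was -0.48 ± 0.15 (limma adjusted p = 0.129). Mcm7 had the opposite sign, with 5.49, 4.95, 4.82 and 3.98 FPKM in old libraries, against 3.60, 4.18, 4.24 and 3.69 FPKM in young libraries. Old replicate 4 lay within the young range, and the difference was 0.28 ± 0.12 (limma adjusted p = 0.238). The other subunits had differences of -0.42 for Mcm3, 0.15 for Mcm4, -0.10 for Mcm5 and -0.35 for Mcm6, with standard errors of 0.15 to 0.24. Of the Mcm7 exon bases, 7.25% overlap Ap4m1 on the opposite strand, and it is unknown here whether counting used strand, so reads of this stretch cannot be assigned to either gene.

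The 2 loading factors and the helicase activators were also unlike. Cdc6 was the scarcest S phase member, with 0.0475, 0.0621, 0.0595 and 0.0547 FPKM in old libraries, against 0.0779, 0.0636, 0.281 and 0.157 FPKM in young libraries. These levels rested on 4 to 6 fragments per old library and 5 to 30 per young library, and the closest old and young libraries differed by less than 1 fragment is worth. Cdt1 averaged 0.631 ± 0.0619 FPKM in old and 0.579 ± 0.219 FPKM in young libraries. Gins2, a GINS subunit, had 7.25, 7.16, 7.98 and 7.02 FPKM in old libraries, against 6.86, 5.84, 5.87 and 6.41 FPKM in young libraries. Its difference of 0.23 ± 0.10 was close to the all-gene median of 0.15 (limma adjusted p = 0.208), and 67.3% of its exon bases overlap the opposite-strand gene Gse1, so its reads cannot be told apart from those of Gse1 without strand. Cdc45 had a difference of 0.24 ± 0.28.

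Genes for nucleotide supply split between the subunits of 1 enzyme. Rrm2, the regulated small subunit of ribonucleotide reductase, had 0.224, 0.644, 0.524 and 0.124 FPKM in old libraries, against 0.399, 0.696, 2.01 and 0.513 FPKM in young libraries. Rrm1, the large subunit, had 1.68, 1.86, 1.86 and 1.79 FPKM in old libraries, against 1.75, 1.56, 2.13 and 1.64 FPKM in young libraries. Old replicates 1 and 4 were below old replicates 2 and 3 for Rrm2, as for Mki67, while Rrm1 was nearly level. Their differences were -0.98 ± 0.55 and 0.02 ± 0.11 (limma adjusted p = 0.336 and 0.922). Tyms and Tk1, which make thymidylate, had differences of -0.03 ± 0.21 and -0.05 ± 0.23. Pcna, the sliding clamp of DNA polymerases that also serves in repair, averaged 8.43 ± 0.968 FPKM in old and 8.33 ± 1.16 FPKM in young libraries, with an interval of -0.30 to 0.34. Under median-ratio scaling the differences of Rrm1 and Pcna were -0.11 and -0.12, while the median over S phase genes was -0.15 and over mitotic genes -0.92. The E-type cyclins of the G1 to S transition, Ccne1 and Ccne2, had intervals of the difference of -0.89 to 0.68 and -0.41 to 0.41.

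**Figure D3:**
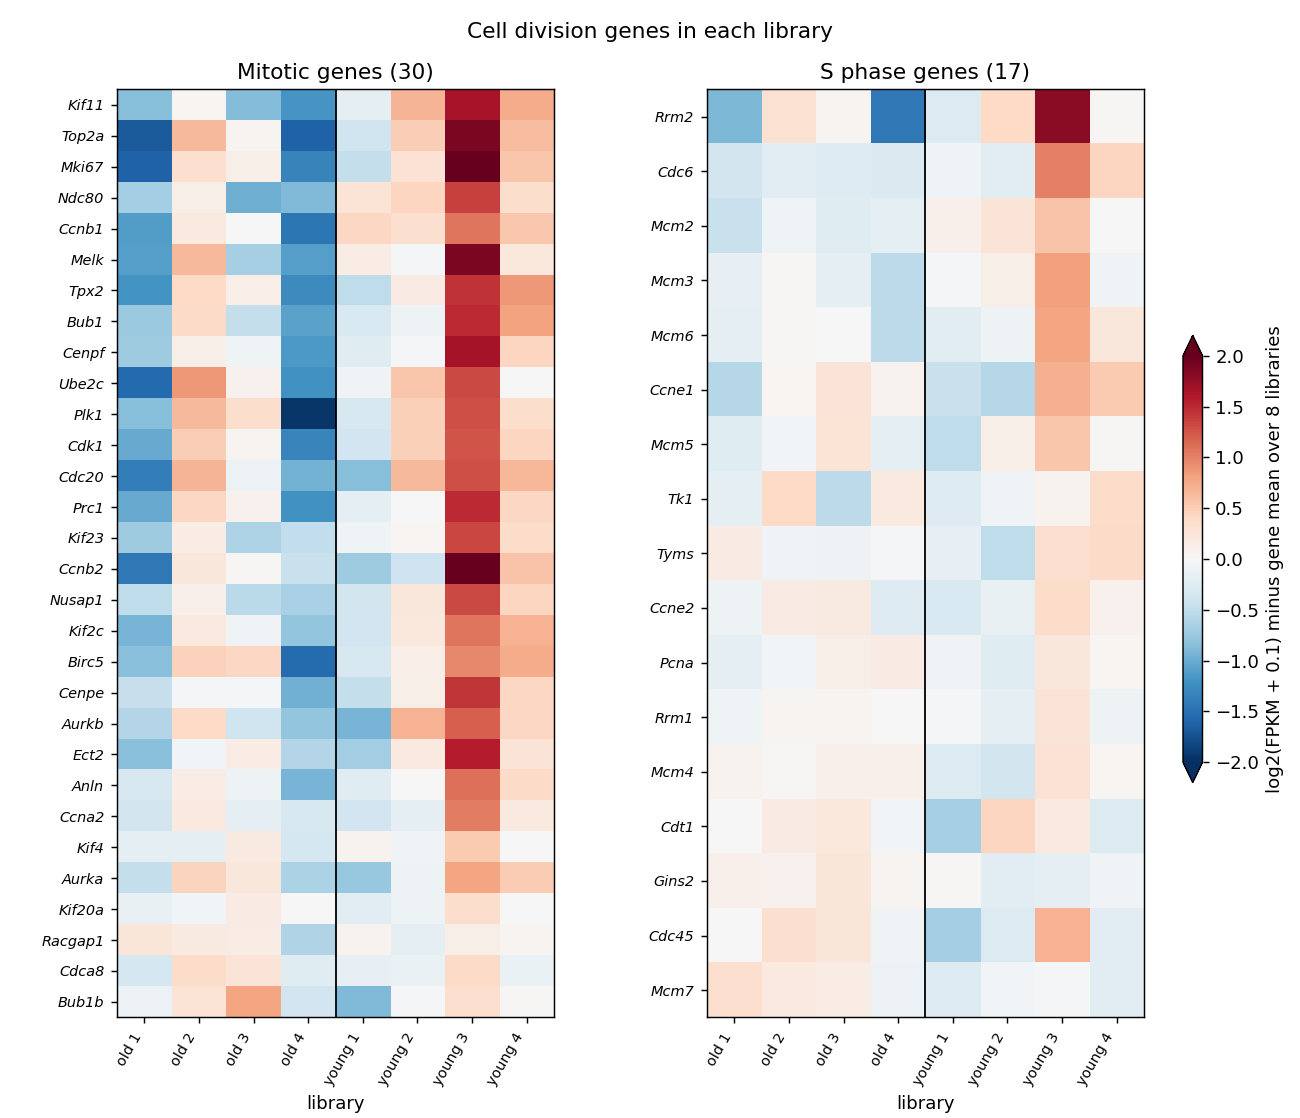
Log2 of FPKM + 0.1 of the 47 members in the 8 libraries, centred on each gene's mean over the libraries, with old libraries left of young ones and the colour scale clipped at -2 and 2. Mitotic genes are mostly highest in young replicate 3 and lowest in old replicates 1 and 4, and S phase genes vary less.

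Mitotic genes ranked the libraries alike. Within the young group, replicate 3 was the highest library for 30 of 30 mitotic genes and for 13 of 17 S phase genes, against 24.1% of all genes tested. Young replicate 1 was the lowest for 26 of 30 mitotic and 8 of 17 S phase genes, against 31.6% of all genes. Among old libraries, replicates 2 and 3 were both above replicates 1 and 4 for 24 of 30 mitotic and 8 of 17 S phase genes, against 19.2% of all genes. These orders were noticed in the data and are given as a description.

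Over the mitotic genes, the median range within an age was wider than the median ratio between the age means (2.06), though for Ndc80 the highest library exceeded the lowest by 2.74 in old and 2.33 in young libraries, below its ratio of means of 2.76. Relative to each gene's mean over all libraries, the median mitotic gene stood at 0.355, 1.10, 0.824 and 0.267 in old libraries, against 0.622, 0.931, 2.39 and 1.17 in young libraries. The median S phase gene stood at 0.865, 1.00, 1.06 and 0.911 in old libraries, against 0.815, 0.889, 1.29 and 0.997 in young libraries. Summed over the 30 genes, mitotic FPKM was 15.1, 26.0, 22.4 and 12.3 in old libraries, against 17.4, 22.9, 47.7 and 26.9 in young libraries. The highest old library exceeded the lowest by a median factor of 3.70 over the 29 mitotic genes above 0 throughout, and the same factor was 3.77 in young libraries. For S phase genes these factors were 1.36 in old and 1.96 in young libraries. Mitotic genes had fewer fragments, with medians of 114 against 443 summed over old and 218 against 455 over young libraries. For Plk1 and Birc5, with factors of 25.5 and 21.8 in old libraries, the lowest library held 1 fragment. The part of counting error in these factors was not tested. Without old replicate 4, the library with the high pituicyte sum and the lowest mitotic sum, the median mitotic difference was -0.63. The part of posterior lobe tissue in it was not tested. Without young replicate 3 the median mitotic difference was -0.51, and 2 of the 29 genes then tested had an unadjusted p under 0.05.

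The count of mitotic genes at an unadjusted p under 0.05 was 13 without young replicate 1 and 11 without old replicate 2. It was 2 without old replicate 1 and 3 without old replicate 3, without old replicate 4 or without young replicate 4. No member reached an adjusted p under 0.05 when any 1 library was left out.

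**Figure D4:**
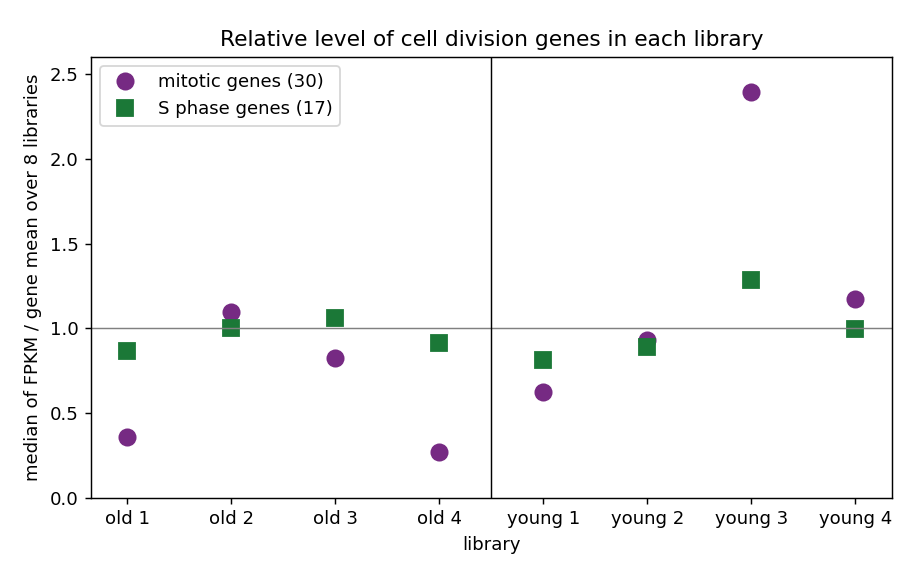
Median over the 30 mitotic genes (circles) and the 17 S phase genes (squares) of FPKM divided by the gene's own mean over the 8 libraries, for each library, old libraries left of young ones. The mitotic median runs between 0.267 and 1.10 in old and between 0.622 and 2.39 in young libraries, and the S phase median stays between 0.815 and 1.29.

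A test that weights genes by their counts called a few members. When voom was run on fragments computed back from FPKM, over 19214 genes, Kif11 (-1.78 ± 0.45, adjusted p = 0.0257), Ndc80 (-1.48 ± 0.39, adjusted p = 0.0341), Ccnb1 (-1.87 ± 0.52, adjusted p = 0.0408) and Mcm2 (-0.50 ± 0.14, adjusted p = 0.0478) were lower in old. The same fit called 1.42% of all genes lower and 5.45% higher in old. The fragments of Kif11 and Ndc80 rest on fitted exon lengths, of which the shortest was taken. These 4 were also the members with the smallest p-values in the limma test. The pseudocount weighs on low genes, and the median mitotic difference was -0.25 with a pseudocount of 1 and -1.13 with 0.01.

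The levels of some members are uncertain because their sequence is shared. Exons of 15 members, 5 of S phase and 10 of mitosis, overlap those of another gene, in most cases on the opposite strand. Beside Gins2 and Mcm7, the overlap took 29.3% of exon bases for Kif20a (Cdc23), 22.8% for Ube2c (Tnnc2), 17.4% for Ccne2 (Ints8), 15.1% for Kif4 (Pdzd11) and 12.5% for Ccna2 (Exosc9). Leaving these 15 members out gave a median difference of -0.82 for mitotic and -0.10 for S phase genes. For Pcna, a pseudogene row, Pcna-ps2, carried a mean of 0.904 FPKM.

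Other genes of the cycle were counted from 3 further lists. In 42 other mitotic genes the median log2 difference was -0.51, 38 lay below 0, and none was called in either direction. At an unadjusted p under 0.05, 2 were higher and 6 lower, against 18% and 3.79% of all genes. Of these lower genes, Cdca2 and Ttk averaged 0.0990 and 0.0768 FPKM in old libraries. They passed the 0.1 FPKM filter only through the young libraries, as did Kif14, Dlgap5, Depdc1a and Shcbp1, which also lay below 0. Their lower levels in old are tied to the filter, and they count toward the 38 and the median. Spc25, which belongs to the same complex as Ndc80, averaged 0.266 ± 0.204 FPKM in old and 0.775 ± 0.410 FPKM in young libraries (-1.32 ± 0.48, limma adjusted p = 0.171). Cdc25c (-0.82) and Cenpw (-0.53) had the same sign, whereas Cdc25b, a phosphatase that activates Cdk1, averaged 3.74 ± 0.277 FPKM in old and 2.59 ± 0.248 FPKM in young libraries (0.52 ± 0.11, limma adjusted p = 0.0523). Pttg1, or securin, had 4.94, 3.60, 3.89 and 3.34 FPKM in old libraries, against 2.56, 2.46, 2.08 and 3.06 FPKM in young libraries, with no overlap and a difference of 0.61 ± 0.16 (limma adjusted p = 0.0916). Both genes had the sign opposite to most mitotic genes, and voom on recovered fragments called both higher in old (adjusted p = 0.0148 for Cdc25b and 0.0352 for Pttg1). They were its only calls among the 36 other mitotic genes it tested, against 5.45% of all genes called higher and 1.42% lower.

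In 31 other S phase genes the median was 0.05, and limma called none. The smallest adjusted p belonged to Pold1, the catalytic subunit of DNA polymerase delta (0.39 ± 0.09, limma adjusted p = 0.0673), followed by Gins4 (0.45), Mcm10 (-0.77), Dtl (-0.72) and Gins3 (0.40). Dtl averaged 0.0517 FPKM in old and 0.162 FPKM in young libraries. It passed the 0.1 FPKM filter only through the young ones, so its lower level in old is tied to the filter. By voom, Pold1 was called higher in old (adjusted p = 0.0492) and was the only call among the 27 other S phase genes tested. Of all genes, voom called 5.45% higher and 1.42% lower in old.

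Among 27 genes that control G1, the median was 0.05. Limma called 1 gene lower in old and none higher, against 0.472% and 1.86% of all genes. Ccnd2, a D-type cyclin that activates Cdk4 and Cdk6, had 26.4, 27.9, 28.8 and 30.9 FPKM in old libraries, against 50.9, 43.9, 53.2 and 56.2 FPKM in young libraries. It fell in old pituitary by 0.84 ± 0.11 on the log2 scale (limma adjusted p = 0.0181), and the libraries of each age lay close together, unlike those of the mitotic genes. Ccnd1 had 12.1, 13.7, 23.1 and 9.97 FPKM in old libraries, against 24.2, 27.3, 36.7 and 27.7 FPKM in young libraries, a difference of -1.03 ± 0.26 (limma adjusted p = 0.0868). Cdk6, their kinase partner, differed by -0.66 ± 0.15 (limma adjusted p = 0.0608) and E2f7, a repressor of E2F targets, by -0.82 ± 0.17 (limma adjusted p = 0.0537). E2f7 averaged 0.0751 FPKM in old and 0.210 FPKM in young libraries. It passed the 0.1 FPKM filter only through the young ones, so its lower level in old is tied to the filter. Rbl2, which encodes the pocket protein p130 of resting cells, differed by 0.22 ± 0.09 (limma adjusted p = 0.212). By voom, 4 of 23 genes were called lower in old, namely Ccnd2 (adjusted p = 8.51e-05), Ccnd1 (adjusted p = 0.0053), Cdk6 (adjusted p = 0.0101) and E2f7 (adjusted p = 0.0162), and none higher. Over all genes, that fit called 1.42% lower and 5.45% higher in old.

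Markers of other cell types of the gland were summed in each library and set beside the mitotic sums. The 8 macrophage genes summed to 98.4, 88.7, 90.6 and 72.5 FPKM in old libraries, against 39.1, 33.7, 46.7 and 58.0 FPKM in young libraries, and 2 of 8 were called higher in old, against 1.86% of all genes. Of the 8, 7 had every old library above every young one, against 13.4% of all genes, and 7 had an unadjusted p under 0.05, against 18%. The 6 blood genes summed to 15.9, 122.7, 124.4 and 89.4 FPKM in old libraries, against 13.0, 14.7, 76.9 and 109.7 FPKM in young libraries, so that old replicate 1 and young replicates 1 and 2 were low in blood genes and had lower mitotic sums than the rest of their age, except that old replicate 4, with the lowest mitotic sum, had a high blood sum. The part of macrophages and of blood cells in the mitotic values was not tested. The 8 stem cell genes summed to 44.4 to 53.2 FPKM in old and 41.6 to 54.3 FPKM in young libraries, but 6 of the 8 had differences below 0 (median -0.28), and the most abundant, Krt8, had a difference of 0.44. Sox2 (-0.34) and Cdh26 (-0.67) had every old library below every young one, against 2.06% of all genes. Voom called Cdh26 lower in old (adjusted p = 0.00936), as it did 1.42% of all genes. The part of stem cells in the mitotic values was not tested. The 8 endothelial genes summed to 78.1 to 105.4 FPKM in old and 73.4 to 102.8 FPKM in young libraries. Esam (0.67) alone of these 8 had every old library above every young one, against 13.4% of all genes. Voom called Esam higher in old (adjusted p = 0.0140), as it did 5.45% of all genes. Limma called none of these 16 stem cell and endothelial genes. Of the 7 mesenchymal genes, 2 were called lower in old (Col1a1 and Col3a1), against 0.472% of all genes. The most abundant of the 7, Col1a2, averaged 52.9 FPKM in old and 54.4 FPKM in young libraries. Of the 7 hormone genes, Gh and Lhb were called lower in old, against the same 0.472%, while the other 5 had differences above 0. Of the 4 lymphocyte genes tested, Jchain was called higher in old, against 1.86% of all genes. Cd79b had the opposite sign (-0.70). The T cell genes Cd3e, Cd3d and Cd3g and the B cell gene Ms4a1 averaged below the filter of 0.1 FPKM.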

How the data were processed

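The authors aligned paired-end reads of 8 poly(A) libraries to GRCm38 with STAR (version 2.6.1a), counted exon fragments with featureCounts against an Ensembl annotation, and deposited 1 list per library of FPKM computed with edgeR (version 3.28.1). Which Ensembl release was used, and whether counting used strand, is not given in the sources used here. Both ages were compared by limma (version 3.58.1, R 4.3.3) on log2(FPKM + 0.1) over the 23498 genes that averaged 0.1 FPKM or more, with Benjamini-Hochberg adjustment over all of them and calls under 0.05. The study's methods describe a test on counts, which FPKM do not allow. Differences are therefore on the log2(FPKM + 0.1) scale, which understates the change of low genes.

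Fragments and the total of each library were computed back from FPKM and GENCODE M21 exon lengths, which made between 89.3 and 90.3% of low values whole within 0.01. For 5 members (Cdc45, Cdk1, Kif11, Kif20a and Ndc80) the annotated length gave no whole fragments, and the shortest length that did so was taken, so their fragment numbers could be whole multiples of those used. The genes so recovered held 77.5 to 79.9% of each library's fragments and entered voom only. Limits from a count of 0 cover counting error only, since fragments without molecular identifiers are not independent molecules. The test was tried on simulated libraries.

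The named genes are all 47 members and, from each further cell cycle list, the 5 genes with the smallest adjusted p. Some other mitotic genes are named only because they passed the filter through the young libraries alone. The members, gene lists, marker lists and tests were chosen with earlier results of these data known. Alternatives were other pseudocounts, filters and scalings, a mean-variance trend, voom, the replicate number as a block, each library left out, and shortened member lists. The medians without members whose exons overlap another gene were added after the data had been seen. Other steps ran in Python 3.11.15 (numpy 2.4.6, pandas 2.3.3); figures were drawn with matplotlib 3.10.9.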

Additional observations from a re-analysis of the deposited data

Results flagged for a closer look

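In each age group of each member, the gap between the extreme library and its nearest neighbour was divided by the group's range, and 7 of 94 groups exceeded Dixon's 95% critical value for 4 samples. Chance would give about 1 in 20 groups. Young replicate 3 stood above the other young libraries for Mcm3 (1.83 FPKM, next 1.08), Cdca8 (0.709 FPKM, next 0.465), Melk (0.692 FPKM, next 0.147) and Ndc80 (1.36 FPKM, next 0.664). Old replicate 2 stood above the other old libraries for Nusap1 (0.760 FPKM, next 0.459) and Melk (0.237 FPKM, next 0.0349). Old replicate 4 stood below the other old libraries for Racgap1 (3.09 FPKM, next 5.26). The groups of these genes share libraries, so the 7 values are not independent of each other.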

How the results depend on the processing

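No member was called under any alternative except voom, which called 1 S phase and 3 mitotic genes lower in old (Mcm2 -0.50, Kif11 -1.78, Ndc80 -1.48 and Ccnb1 -1.87). The median mitotic difference was below 0 under every alternative run, and over the libraries left out in turn it ranged from -1.07 to -0.51. Over the same 8 fits the S phase median ranged from -0.10 to 0.11. Counts over all genes moved more. Genes higher in old numbered 689 with a pseudocount of 1, 263 without a filter, 796 at a mean of at least 1 FPKM, 212 with median-ratio scaling, 217 without hormone and repeat genes, 704 with a mean-variance trend and 1048 with voom, against 436. Genes lower in old numbered 201 with median-ratio scaling and 273 with voom, against 111. Leaving out 1 library gave 64 to 327 higher and 21 to 163 lower genes, with fewer samples in the fit. The same-numbered samples did not deviate together (correlations of 0.06, -0.09, 0.01 and -0.03). These correlations gave no sign of pairing by number, but they cannot exclude a pairing weaker than the differences between libraries. A fit with the replicate number as a block called 4 genes higher and 0 lower.

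Members near 0 changed sign. With median-ratio scaling the differences were -0.12 for Pcna, -0.11 for Rrm1 and -0.10 for Cdca8, and without hormone and repeat genes -0.0712, -0.0625 and -0.0568. With 1 library left out they ranged from -0.31 to 0.11 for Ccne1, -0.10 to 0.12 for Ccne2, -0.19 to 0.11 for Tk1, -0.0973 to 0.0909 for Kif20a, -0.10 to 0.15 for Cdca8, -0.0566 to 0.10 for Pcna, -0.20 to 0.10 for Tyms, -0.10 to 0.18 for Racgap1, -0.0328 to 0.33 for Cdt1, -0.0305 to 0.11 for Rrm1, -0.29 to 0.0711 for Mcm5 and -0.51 to 0.00242 for Aurka. The cause was not tested. In all, 725 of the values recomputed for single members kept their sign and their side of the threshold, 37 changed sign and 4 passed the threshold. Depth limits the scarce members, since 12 mitotic and 2 S phase genes had under 10 fragments in some library.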
